A study of Mus musculus with 4 samples.

Results

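The messenger RNAs of the proteins that build the cytosolic ribosome are described here across RNA immunoprecipitation sequencing (RIP-seq) libraries, with the large subunit set beside the small one. Members were the protein-coding genes of the mm10 annotation GENCODE M21 whose symbols begin with Rpl, Rplp or Rps and a digit, or read Rpsa, leaving out the S6 kinases, binding proteins and pseudogenes. This gave 85 genes of 55573 in the table, 52 of the large (Rpl) and 33 of the small (Rps) subunit, 8 of them paralogues with the suffix l, l1 or rt. All libraries came from sorted CD31-positive cells (CD31 marks the surface of vessel-lining cells and of certain blood cells) of the caudal part of wild-type C57BL/6 mouse embryos at E10.0. In RIP-seq an antibody on beads recovers a protein with the RNA held to it, and here 2 libraries were made with an antibody against Runx1, a transcription factor needed to form blood stem cells, and 2 with IgG, which measures the background. The question was which RNAs the Runx1 antibody recovered more than IgG. The labels do not state that the replicates are separate embryos or sorts, and p-values then measure only the spread among the 4 libraries, possibly a technical one.

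As background, each ribosome holds 1 copy of nearly every ribosomal protein, so cells make these proteins in matched amounts. The small subunit reads the messenger RNA. The large subunit joins amino acids and lets the chain out through a tunnel. Most ribosomal protein mRNAs are short, abundant and begin with a run of pyrimidines, the 5′ terminal oligopyrimidine (TOP) tract, through which growth signals control their translation together. Ribosomes are in high demand in dividing embryonic cells and in early red cells, and loss of 1 copy of several of these genes causes Diamond-Blackfan anaemia.

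Both subunits were recovered more with the Runx1 antibody relative to the typical gene, and by like amounts per gene, but their direction turned when libraries were scaled to the spike-in RNAs. Of the 85 genes, 77 passed the low-count filter and were tested, 47 large and 30 small. At an edgeR false discovery rate of 0.05, 5 large subunit genes rose (Rplp0, Rpl8, Rpl6, Rpl4 and Rpl3), 2 small subunit genes rose (Rps3 and Rps4x), 70 did not pass and 0 fell, where 0.306% of all 12401 genes tested were called higher and 0.339% lower. By edgeR's p before adjustment (threshold 0.05), 42 members were higher and 0 lower (6.88% and 7.36% of all genes tested). DESeq2 called 20 of the 77 higher and 0 lower (3.11% and 4.70% of genes with an adjusted p), and limma-voom 16 and 0 (0.823% and 0.968%). Genes with low counts, among them the members Rpl31, Rpl39, Rps10, Rps21, Rps26 and Rps28, had no DESeq2 adjusted p. DESeq2 could not call such genes, here or in the counts given below. The median log2 fold change was 0.82 over the 47 large subunit genes (range -0.010 to 2.66) and 0.82 over the 30 small subunit genes (range -0.48 to 1.54), beside 0.027 over all genes tested. Both Runx1 libraries lay above both IgG libraries for 41 of the 47 and 26 of the 30, as they did for 24.1% of all genes tested. For 0 of the 77 did both lie below, as they did for 21.3%. A fold change above 1 was found for 46 and 28 of them, and for 51.5% of all genes tested.

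The spike-ins are synthetic RNAs from the ERCC set, and no source used here gives their amount or when they were added. Their counts came to 596 and 713 in the Runx1 libraries and 494 and 434 in the IgG libraries. Scaling to them moved the median of all genes to -1.25 and the medians of the large and small subunit genes to -0.50 and -0.45, which is 0.75 and 0.80 above the median gene. Under it 14 of the 77 had a fold change above 1, 0 were called higher and Rps3a1 was called lower (0.153% and 31.6% of all genes tested). Higher and lower are thus meant relative to the typical gene of a library.

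**Figure D1:**
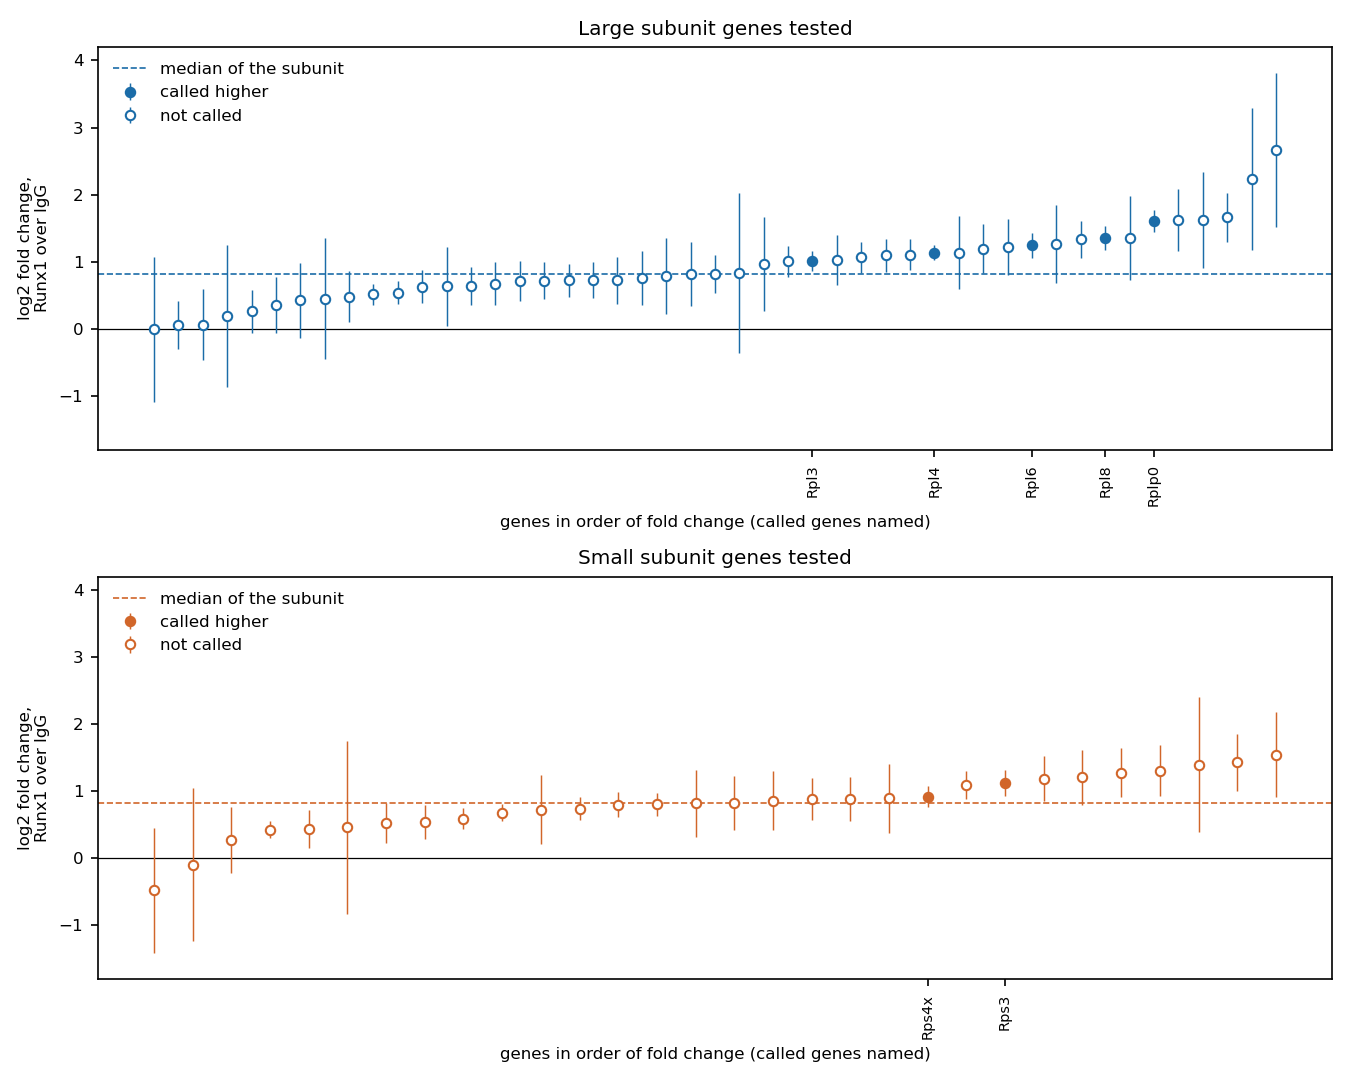
Log2 fold change of each tested member, Runx1 over IgG, with its standard error (bars), for 47 large subunit genes (top) and 30 small subunit genes (bottom). Filled points, named on the axis, were called by edgeR; each dashed line is the subunit's median, 0.82 in both panels, and both medians fall below 0 (-0.50 and -0.45) when libraries are scaled to the spike-ins.

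Among large subunit genes, the largest difference that passed was that of Rplp0, which encodes the protein at the base of the stalk, the arm that binds translation factors. Rplp0 (chromosome 5, 115559467 to 115563727) stood at 923 and 1099 CPM (a gene's counts scaled to 1e6 gene counts per library) in Runx1 replicates 1 and 2 and at 360.1 and 291 CPM in IgG replicates 1 and 2. Both Runx1 libraries stood far above both IgG libraries, a 3.04-fold rise (log2 fold change 1.61 ± 0.17, SE, edgeR adjusted p = 0.00961). Rpl4 (chromosome 9, 64173375 to 64178666), whose protein lines the exit tunnel, was the most abundant member. It stood at 1403 and 1368 CPM in the Runx1 libraries against 615 and 624 in the IgG libraries. Its replicates differed little beside the gap between antibodies, and its log2 fold change was 1.13 ± 0.11 (edgeR adjusted p = 0.00858). Rpl8 (chromosome 15, 76904078 to 76906314), a protein near the catalytic centre, stood at 510.3 and 583 CPM against 223 and 197 (1.35 ± 0.18, edgeR adjusted p = 0.0210). Rpl3 (chromosome 15, 80077791 to 80091868), which also reaches towards the catalytic centre, stood at 864 and 978 CPM against 424 and 474 (1.01 ± 0.14, edgeR adjusted p = 0.0303). Rpl6 (chromosome 5, 121204481 to 121209241) stood at 367 and 371 CPM against 161 and 145 (1.24 ± 0.19, edgeR adjusted p = 0.0382). In none of these 5 genes did the libraries of the antibodies overlap. With trends of transcript length and GC removed, only Rplp0 (1.20 ± 0.15) and Rpl4 (0.91 ± 0.12) were still called (0.210% of all genes were called higher and 0.0887% lower), with Rpl8 at 0.83, Rpl6 at 0.90 and Rpl3 at 0.63. Under the spike-in scaling Rplp0 (0.30) and Rpl8 (0.057) stayed above 0.

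**Figure D2:**
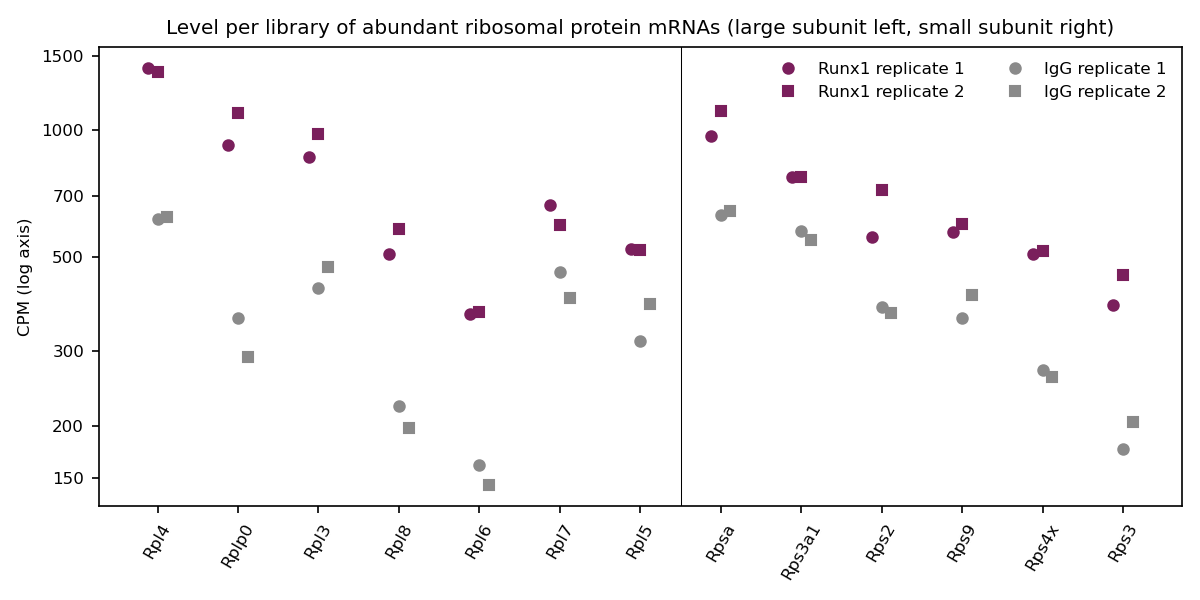
Level in CPM (log axis) of abundant ribosomal protein mRNAs in each of the 4 libraries, the 7 called members among them; large subunit genes are left of the line and small subunit genes right of it. For every gene drawn, both Runx1 libraries lie above both IgG libraries as shares of the library; with spike-in scaling the fold change falls below 1 for all but Rplp0 and Rpl8.

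The other proteins of the stalk had smaller or less certain differences than Rplp0. Rplp1 and Rplp2, the acidic proteins that form its tips, stood at 104 and 117 against 57.2 and 37.1 CPM, and at 65.1 and 65.7 against 37.0 and 39.1 CPM. Rpl12, a protein at the stalk's foot, stood at 141 and 132 against 90.3 and 81.8 CPM. None of these 3 passed (log2 fold change 1.19 ± 0.37, 0.75 ± 0.40 and 0.63 ± 0.28, edgeR adjusted p = 0.201, 0.452 and 0.357). In all 3 both Runx1 libraries lay above both IgG libraries, as for 87.2% of tested large subunit genes and 24.1% of all genes tested. Differences between stalk genes were not tested.

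Rpl5 and Rpl11 bind 5S ribosomal RNA and, when free, hold back the p53 inhibitor Mdm2. Rpl5 stood at 523 and 521 against 317 and 388 CPM (log2 fold change 0.54 ± 0.17, edgeR adjusted p = 0.205). Rpl11 stood at 141 and 152 against 91.6 and 83.4 CPM (0.71 ± 0.28, edgeR adjusted p = 0.289). Neither passed, and both lay under the large subunit median.

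The 8 genes fixed as proteins around the exit tunnel had fold changes from 0.72 (Rpl26) to 2.66 (Rpl39) on the log2 scale, with a median of 1.28, and Rpl4 alone passed. Rpl19 stood at 197 and 158 against 65.6 and 72.5 CPM (1.33 ± 0.28, edgeR adjusted p = 0.0843). Rpl39 and Rpl31 had the largest fold changes of all members and among the largest errors (SE 1.15 and 1.06). Processed pseudogenes of Rpl31 held 53.9% of the counts of the gene and its copies, and with them summed in its log2 fold change was 1.07 and the median of the 8 genes 0.96. Counts of Rpl39 were 34 and 11 in the Runx1 libraries and 6 and 6 in the IgG libraries, and those of Rpl31 were 40 and 11 against 11 and 8. In both genes Runx1 replicate 1 was well above Runx1 replicate 2, and neither passed (edgeR adjusted p = 0.341 and 0.386). The remaining tunnel genes, Rpl17 (1.22), Rpl23a (1.36) and Rpl35 (0.83), had no overlap between antibodies and did not pass. All 8 tunnel genes lay higher in both Runx1 libraries, as did 87.2% of tested large subunit genes and 24.1% of all genes tested.

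Other large subunit mRNAs did not pass the test. The abundant Rpl7 stood at 664 and 595 CPM against 462 and 402 (0.51 ± 0.15, edgeR adjusted p = 0.190). The large subunit genes nearest to a call were Rpl13 (297 and 309 against 118 and 159 CPM, edgeR adjusted p = 0.0797), Rpl19, and Rpl10 (241 and 233 against 103 and 119 CPM, edgeR adjusted p = 0.0913). Rpl29 and Rpl18 followed at 0.0935 and 0.0977, and Rpl14, with 298 and 235 against 123 and 137 CPM, at 0.101. For Rpl13, Rpl10, Rpl19, Rpl29, Rpl18 and Rpl14, DESeq2 gave a call.

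In the small subunit the 2 genes that rose were Rps3, whose protein guards the entry of the messenger RNA channel, and Rps4x, the X-linked form of eS4. Rps3 (chromosome 7, 99477896 to 99483738) stood at 386 and 454 against 176 and 204 CPM (1.12 ± 0.19, edgeR adjusted p = 0.0490). Rps4x (chromosome X, 102184941 to 102189394) stood at 509 and 518 against 271 and 261 CPM (0.92 ± 0.16, edgeR adjusted p = 0.0493). Both lay close to the threshold, and with replicate numbers as a block none of the 7 called members passed (0.0161% of all genes tested did). Rps3 was no longer called without IgG replicate 1 (adjusted p = 0.0530) nor Rps4x without IgG replicate 2 (adjusted p = 0.0675), and neither passed with the length and GC trends removed (0.94 and 0.63). Under the spike-in scaling both fell below 0 (-0.15 and -0.36) with no call.

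The most abundant small subunit mRNAs had narrow errors and moderate differences. Rpsa, which encodes the protein also known as the laminin receptor, stood at 966 and 1108 CPM against 628 and 642 (log2 fold change 0.68 ± 0.13, edgeR adjusted p = 0.0676). Rps3a1 stood at 772 and 774 against 577 and 549 CPM (0.43 ± 0.13, edgeR adjusted p = 0.199). Rps2, the other protein of the mRNA entry, stood at 559 and 720.1 against 381 and 369 CPM (0.74 ± 0.17, edgeR adjusted p = 0.106). Rps9 stood at 575 and 601 against 360 and 407 CPM (0.59 ± 0.15, edgeR adjusted p = 0.149). In these 4 genes both Runx1 libraries lay above both IgG libraries, as for 86.7% of tested small subunit genes and 24.1% of all genes tested. The fold change of each was under that of the subunit's median gene.

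Of the 4 genes fixed as proteins at the mRNA exit, 0 passed over all genes in edgeR. Before adjustment 3 were higher, and DESeq2 and limma-voom called 1 each. Over the 77 tested members these numbers were 42, 20 and 16. The shares over all genes were 6.88%, 3.11% (of genes with an adjusted p) and 0.823%. Rps26 and Rps28 had no DESeq2 adjusted p. Rps26, which touches the bases ahead of the start codon, stood at 28.7 and 31.3 against 9.63 and 10.5 CPM (1.54 ± 0.63, the largest of the small subunit genes tested). Rps14 stood at 103 and 148 against 68.7 and 64.5 CPM. Rps28 was low, at 14.3 and 7.95 against 4.94 and 3.22 CPM. Rps6, the protein phosphorylated by S6 kinases, stood at 392 and 419 against 223 and 233 CPM (0.80 ± 0.17, edgeR adjusted p = 0.0923).

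Only 3 tested members had a fold change below 1, and all had overlapping libraries and errors wider than the difference. Rps10 stood at 21.5 and 7.95 against 5.98 and 34.2 CPM (log2 fold change -0.48 ± 0.93), so that the 2 IgG libraries bracketed both others. Rps21 stood at 3.58 and 5.83 against 5.46 and 4.43 CPM (-0.098 ± 1.14). Rpl22l1 is given with the paralogues. Rps10 had the widest gap between IgG replicates of all members (5.05-fold on CPM with 1 added), and with its processed pseudogenes summed in, its log2 fold change was 0.26.

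Of the 10 members fixed as genes mutated in Diamond-Blackfan anaemia, 10 were tested and 0 passed in edgeR, with a median log2 fold change of 0.77. Before adjustment 5 were higher, DESeq2 called 1 and limma-voom 0. Over the 77 tested members these numbers were 42, 20 and 16. The shares over all genes were 6.88%, 3.11% (of genes with an adjusted p) and 0.823%. Rps10 and Rps26 had no DESeq2 adjusted p. Rps19, the gene most often mutated, stood at 81.8 and 99.6 against 32.5 and 39.5 CPM (1.31 ± 0.38, edgeR adjusted p = 0.186). Rps7 stood at 116 and 109 against 45.5 and 51.2 CPM (1.19 ± 0.33, edgeR adjusted p = 0.169) and was the 1 gene called by DESeq2. Rpl35a stood at 35.8 and 39.7 against 12.5 and 18.5 CPM (1.26 ± 0.58). Rps24 (0.44 ± 0.28) had a smaller difference. Both Runx1 libraries lay above both IgG libraries for 9 of the 10 genes, and Rps10 alone had overlapping libraries. This was near the share of all tested members (87.0%), beside 24.1% of all genes tested.

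Summed over their genes, the subunits differed in a way that the medians did not show. Large subunit mRNAs held 0.907% and 0.949% of gene counts in the Runx1 libraries and 0.469% and 0.462% in the IgG libraries, 1.99 times as much on average. Small subunit mRNAs held 0.638% and 0.688% against 0.380% and 0.392%, 1.72 times as much. The ratio of large to small subunit counts was 1.42 and 1.38 in the Runx1 libraries against 1.24 and 1.18 in the IgG libraries. As a share of all ribosomal protein counts, the large subunit took 58.7% (exact 95% binomial interval 58.1 to 59.3, counting error only), 58.0% (57.4 to 58.5), 55.3% (54.7 to 55.8) and 54.1% (53.4 to 54.7). The ratio stood higher in both Runx1 libraries than in both IgG libraries, also with any 1 of the 7 called genes left out. With all 7 left out it was 0.912 and 0.862 against 0.868 and 0.834, which overlap. Those 7 were picked by their rise in the same data.

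That shift rested on the few most abundant genes. In the large subunit, Rpl4, Rpl3, Rplp0 and Rpl7 held 42.5% and 42.6% of the subunit's counts in the Runx1 libraries against 39.6% and 38.8%. In the small subunit, Rpsa, Rps3a1, Rps2 and Rps9 held 45.0% and 46.5% against 51.2% and 50.1%. Without these 8 genes the ratio was 1.49 and 1.48 in the Runx1 libraries and 1.53 and 1.44 in the IgG libraries, which overlap. The difference between the medians of large and small subunit genes was -0.0045, and between -0.047 and 0.12 over all alternative settings. A ratio within a library does not depend on how libraries are scaled.

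**Figure D3:**
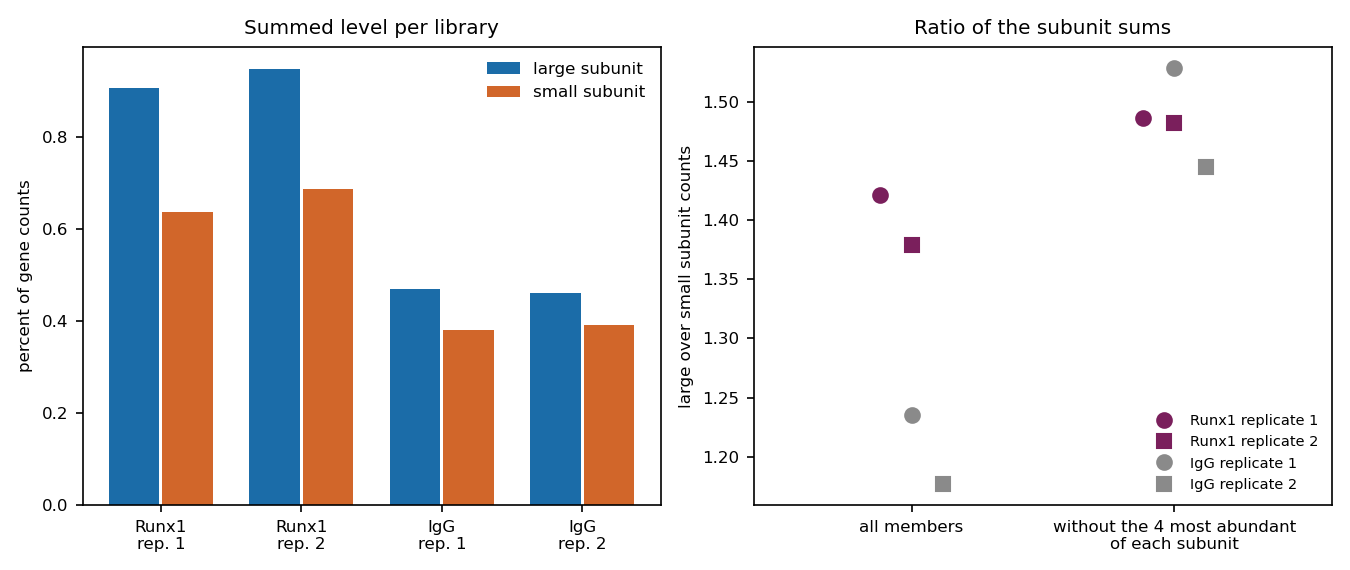
Left, summed counts of large and small subunit genes as a percent of all gene counts in each library. Right, the ratio of large to small subunit counts per library, over all members (1.42 and 1.38 for Runx1, 1.24 and 1.18 for IgG) and without the 4 most abundant genes of each subunit, where the antibodies overlap.

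How firmly a member could be called followed its length. Coding length, taken from the annotation's principal transcript, had a median of 475.5 bases over large and 438 over small subunit genes, beside 1479 over all protein-coding genes tested. Members with a coding length of 600 bases or more had a median of 284 CPM, those of at least 400 and under 600 bases 67.9 CPM and those under 400 bases 19.0 CPM. Per kilobase of coding length the medians were 424, 146 and 61.5 CPM. Across the 77 tested members, Spearman's rho between coding length and mean CPM was 0.83, as a description over genes that share libraries, and it was 0.27 over all protein-coding genes tested. Per the labels' protocols, cDNA was sheared to about 300 bases before the libraries were built, and the part of this step in the level of short mRNAs was not tested.

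The difference between antibodies did not follow length within the family (rho = 0.072 between coding length and log2 fold change over the 77). The median log2 fold change was 0.92 in the longest class, 0.86 in the middle and 0.72 in the shortest. All 7 calls fell among the 23 tested members of the longest class, whose median SE was 0.19. In the 29 tested members of the middle class 0 were called in edgeR (16 higher at unadjusted p of 0.05, 5 by DESeq2, 3 by limma-voom). In the 25 of the shortest 0 were called (6 at that unadjusted p, 0 by DESeq2 and 0 by limma-voom). Their median SE was 0.36 and 0.58. Several of the shortest, such as Rpl31, Rpl39, Rps26 and Rps28, had no DESeq2 adjusted p and could not be called by it. Rpl23a and Rps10 of the middle class had none either. Over all protein-coding genes tested, fold change had a rho of -0.17 with coding length and 0.26 with GC content of the transcript. With trends of transcript length (not coding length) and GC removed, the median log2 fold change was 0.55 over large and 0.45 over small subunit genes. It was 0.0054 over all genes, and 68 of the 77 members stayed above 0.

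**Figure D4:**
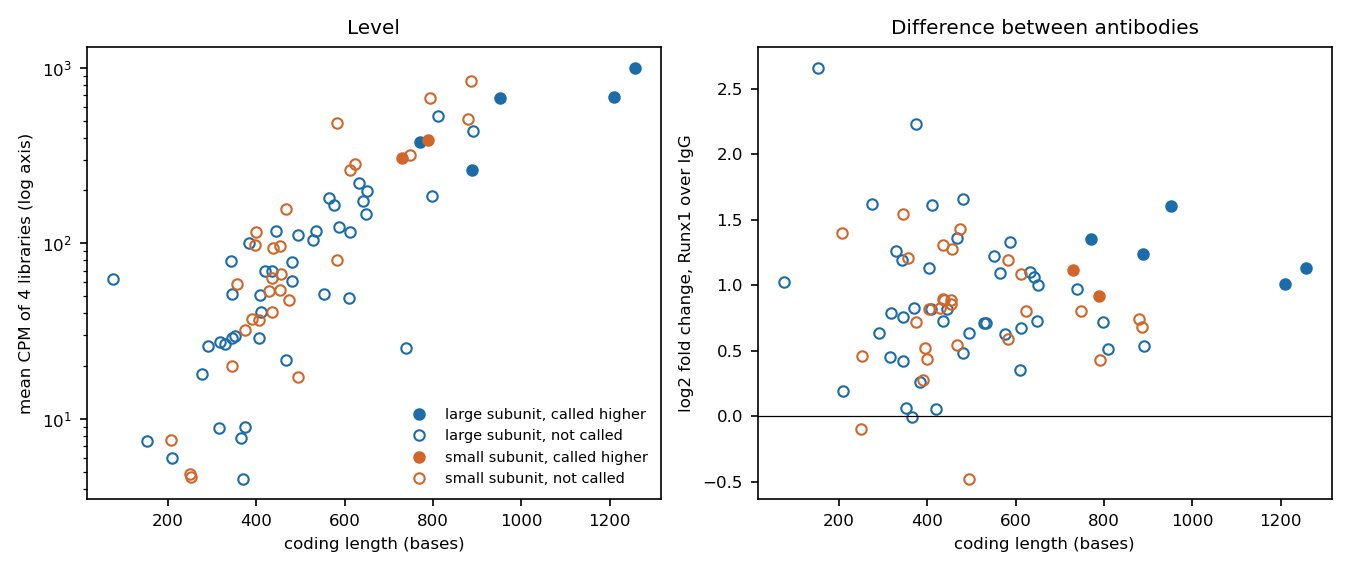
Coding length of the 77 tested members against mean CPM of the 4 libraries (left, log axis) and against log2 fold change, Runx1 over IgG (right). Filled points are the 7 called members, all in the class of 600 bases or more; level rises with length (rho = 0.83) while fold change does not (rho = 0.072), and under spike-in scaling only 14 of the 77 fold changes are above 1.

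The paralogues, copies marked by the suffix l, l1 or rt, were low or absent. Rpl3l, a form of striated muscle, and Rpl10l and Rpl39l, forms of the testis, had 0 counts in all 4 libraries. Over the Runx1 libraries this allows Rpl3l a share of up to 0.0911% of Rpl3 and Rpl3l counts, Rpl10l up to 0.356% of its pair and Rpl39l up to 6.67% of its pair (3 counts, counting error only). Only Rpl22l1 and Rpl7l1 passed the low-count filter. Rpl22l1 stood at 11.9 and 3.71 CPM against 4.16 and 11.3 (log2 fold change -0.010 ± 1.08), while its partner Rpl22 stood at 127 and 94.8 against 104 and 77.0 CPM (0.26 ± 0.32), and both overlapped between antibodies. Rpl22l1 took 6.44% (exact 95% interval 4.29 to 9.24) of the pair's counts with the Runx1 antibody and 6.92% (5.07 to 9.18) with IgG. Rpl7l1 stood at 22.7 and 45.0 against 24.5 and 9.27 CPM (0.97 ± 0.70), and took 5.21% and 4.05% of the counts it shared with Rpl7. Rpl36al had 0 counts in both Runx1 libraries and 11 and 4 with IgG, at least 2.82-fold lower with the Runx1 antibody against a floor of 3 counts over the group, which was not tested. Its partner Rpl36a stood at 30.4 and 39.2 against 21.9 and 17.7 CPM.

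Coding sequence shows which of these pairs short reads can tell apart. Rps27l is identical to Rps27 in 76.2% of aligned coding bases and Rps27rt in 100%, and Rpl36al to Rpl36a in 87.7%. The first 30 coding bases are printed to show this, 5′ to 3′ on the coding strand, from GENCODE M21 transcripts of mm10. Rps27 lies at chr3:90212522-90213651 (minus strand), Rps27l at chr9:66946086-66949516 (plus), Rps27rt at chr9:114982366-114982739 (minus), Rpl36a at chrX:134585654-134588062 (plus) and Rpl36al at chr12:69182731-69184083 (minus). Capitals mark bases that differ within the pair of Rps27 and Rps27l, or of Rpl36a and Rpl36al.
Rps27: atgccTctCgcAaAGgatctCCtTcaTccC
Rps27l: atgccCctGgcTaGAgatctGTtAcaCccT
Rps27rt: atgcctctcgcaaaggatctccttcatccc
Rpl36a: atggtGaacgtGccTaaaacccgCCggacA
Rpl36al: atggtCaacgtAccAaaaacccgAAggacT
Rps27 and Rps27l differ at 10 of the 30 bases, while Rps27 and Rps27rt differ at 0, so reads within this stretch cannot be assigned to either of the last 2. Rps27 had 20 counts over both Runx1 libraries and 22 over both IgG libraries, Rps27l 13 and 6, and Rps27rt 5 and 1.

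Near-identical copies are common for the whole family. Another gene shared a stretch of 200 or more bases, with 95% or more of them identical, for 78 of the 85 members, with a median of 5 such genes and up to 60 (Rpl21), and exons of 39 members overlap another gene. No source used here says how reads were shared out between such copies. Rpl4 and Rps3 had 1 such copy, Rplp0 had 3, Rpl6 had 4, Rpl3 and Rps4x had 7 each, and Rpl8 had 0. Processed pseudogenes held 9.76% of the counts of members and their pseudogenes together, and for 6 members they held more than the parent, among them Rpl17 (63.0%) and Rpl23a (58.6%). Summing these pseudogenes into their parents left 7 calls, the same 7 genes, and medians of 0.78 and 0.80. Over 15 tested members with 0 or 1 such copies the median log2 fold change was 0.97, and over 20 with 10 or more it was 0.77. Rpl24, whose protein helps join the subunits, was not tested, with 1 and 3 counts against 20 and 5. The zinc-ribbon protein gene Rps29, with 8 and 6 against 6 and 3 counts, was not tested either.

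The start sites of the members were read for the TOP tract. The motif was a C within 5 bases of the annotated start followed by at least 4 bases that are C or T, on the sense strand only, in RefSeq start sites of GRCm38.p6. It was found at 1 or more starts of 17 of 40 large subunit genes with an entry (42.5%), 13 of 25 small subunit genes (52.0%), 3 of the 8 paralogues and 21.2% of all 27025 genes in the table. The windows below run from 10 bases before the annotated start to 20 from it, with the matched tract in capitals. They show 2 large and 2 small subunit genes with a match, and the called genes Rplp0 and Rpl4 without a match within 5 bases of the annotated start. The Rplp0 window holds such a run (ctcct) further in, outside that range.
Rpl27a (chr7:109519185-109519214, plus): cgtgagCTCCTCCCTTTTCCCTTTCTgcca
Rpl18 (chr7:45718061-45718090, plus): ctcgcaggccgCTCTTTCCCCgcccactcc
Rps6 (chr4:86857348-86857377, minus): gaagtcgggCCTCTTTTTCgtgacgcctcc
Rps18 (chr17:33955646-33955675, minus): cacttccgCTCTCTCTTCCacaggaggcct
Rplp0 (chr5:115559457-115559486, plus): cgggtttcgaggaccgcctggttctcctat
Rpl4 (chr9:64173377-64173406, plus): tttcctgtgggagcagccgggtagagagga
Annotated starts can lie some bases from the start a cell uses, and no match says only that no such run begins within 5 bases of the annotated start. Of the tested members, 28 with a match had a median log2 fold change of 0.75 and 0 edgeR calls. The 30 with no match had a median of 0.87 and 5 calls, where 0.306% of all genes tested were called higher. Tested members with no start entry, the called Rpl3 and Rpl8 among them, are in neither group. All 7 calls fell among members of 600 or more coding bases, and the groups were not matched for length. A difference between the groups was not tested. At these 4 genes with a match, fold changes were 0.82 (Rpl27a), 1.09 (Rpl18), 0.80 (Rps6) and 1.28 (Rps18).

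Further sets of genes that act with these proteins were described beside them. Of the subunit proteins that the naming rule leaves out, Rack1, a scaffold on the small subunit, rose (831 and 788 against 397 and 386 CPM, log2 fold change 1.02 ± 0.14, edgeR adjusted p = 0.0244). Fau, which encodes a small subunit protein fused to a ubiquitin-like one, stood at 56.7 and 83.2 against 30.7 and 47.1 CPM and did not pass. Rps27a, the fusion gene within the family, stood at 211 and 164 against 129 and 122 CPM (0.54 ± 0.25). Of 20 maturation factors of the large subunit, 0 passed in edgeR, with a median of 0.43 (3 higher and 1 lower before adjustment, 2 higher by DESeq2, 0 by limma-voom). Las1l, of the enzyme that cuts the spacer of the precursor rRNA, came nearest (300 and 221 against 113 and 135 CPM, edgeR adjusted p = 0.111), before Bccip (157 and 140 against 62.7 and 72.5 CPM). Of 16 tested maturation factors of the small subunit 0 passed, with a median of 0.58 (3 higher before adjustment, 0 by DESeq2 and limma-voom), and Nop14 (1.09 ± 0.45) and Emg1 (0.84 ± 0.35) came nearest. Of 12 tested regulators of TOP mRNAs 0 passed, with a median of -0.26 (1 higher and 1 lower before adjustment, 0 by DESeq2 and limma-voom). Larp1, which binds the TOP tract, stood at 299 and 290 against 380 and 343 CPM (-0.32 ± 0.17), and the 2 with the smallest p were Rps6ka1 (1.27 ± 0.42) and Larp4 (-0.76 ± 0.26).

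The Runx1 libraries were the shallower ones, at 1675488 and 1887301 gene counts beside 3843318 and 2482045 for IgG, and 3 counts correspond to 0.781 to 1.79 CPM. Of 10 endothelial markers all were detected in each library and 10 tested, with a median log2 fold change of 0.042 and summed levels of 1430 to 1799 CPM with the Runx1 antibody and 1732 to 1780 with IgG. Of 10 erythroid markers 7 were tested, 7 had a fold change above 1 and 6 lay higher in both Runx1 libraries (51.5% and 24.1% of all genes tested). Their median was 0.78, and the list's summed levels were 868 to 874 against 461 to 499 CPM. Of the 7, edgeR and limma-voom called 0, and DESeq2 called 2 higher (3.11% of genes with an adjusted p). Neural markers had a median of 0.83 over 5 tested (519 to 633 against 381 to 401 CPM). Of these 5, 3 lay higher in both Runx1 libraries and 0 were called by edgeR, DESeq2 or limma-voom. Sox1, also on the neural list, was not tested, with 0 and 3 counts against 49 and 3. Medians were 0.32 over 7 mesenchymal markers, 0.10 over 6 epithelial ones and 1.24 over 2 macrophage ones. These 2, Csf1r (2.79, high in Runx1 replicate 2 alone) and Mrc1 (-0.31), both overlapped between antibodies. The erythroid and neural markers that were tested thus had fold changes above 1, as most ribosomal protein genes did. The part of those markers in the family's result was not tested. In such bulk libraries, fewer cells of a type and less RNA per cell cannot be told apart.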

How the data were processed

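The deposited table holds the authors' counts, whole numbers not normalized, per Ensembl gene for 4 RIP-seq libraries of CD31-positive mouse embryo cells (2 Runx1, 2 IgG). The submitters' processing notes name Trimmomatic 0.36, STAR 2.7.3a, Salmon 1.1.0 and mm10; how reads shared between copies were counted, and whether by strand, is not given in the sources used here. It is also not stated whether the values are read counts or rounded estimates, and the binomial intervals treat them as read counts. Identifiers were matched to GENCODE M21 (55480 of 55573). Spike-ins (92 rows) did not count towards library sizes. Genes passing edgeR's filterByExpr (minimum count 10, total 15) were scaled by TMM and compared with edgeR 4.0.16 quasi-likelihood tests (R 4.3.3), adjusted by Benjamini-Hochberg over 12401 genes. The biological coefficient of variation was 46.1%.

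Alternatives were DESeq2 1.42.0, limma-voom (limma 3.58.1), other scalings including the spike-ins, no filter, a replicate block, each library left out, library totals without mitochondrial and haemoglobin genes, and offsets for transcript length and GC content (splines of 5 degrees of freedom per library). Added after seeing the data were the longest transcript for those offsets, summing processed pseudogenes into parents, and the subunit ratio without some genes. The scripts were tested on simulated data. Members and gene lists were chosen with earlier results of these data known. Named were all called members, the 4 most abundant and the 3 with the smallest p of those not called in each subunit, all with a negative log2 fold change, paralogues with their partners, members of the role lists (some are not reported here), and of the other lists those called or the 2 with the smallest p. Others named as examples (Larp1, Rps6, Rps18, Rpl14 and the like) were chosen after their values were seen. No unique molecular identifiers are named, so intervals cover counting error only.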

Additional observations from a re-analysis of the deposited data

How the results depend on the processing

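The 74 members with a fold change above 1 were 74 also under the replicate block, but the number of calls and the size of the medians changed with several settings, and the cause was not tested. Scaled to the spike-ins, 0 large and 0 small subunit genes were called higher and 1 member lower, with medians of -0.50 and -0.45 (large minus small -0.047). There Rpl3 (-0.26), Rpl4 (-0.14), Rpl6 (-0.048), Rps3 (-0.15), Rps4x (-0.36), Rps3a1 (-0.85) and Rack1 (-0.26) changed sign, 33 of 46 named genes in all. Large subunit calls, 5 as reported, were 11 without the low-count filter, 11 with DESeq2, 10 with limma-voom and 2 with the length and GC correction on either choice of transcript. Small subunit calls, 2 as reported, were 7, 9, 6 and 0 in the same order, and 0 with DESeq2 size factors in edgeR or without mitochondrial and haemoglobin genes, where Rps3 and Rps4x had an adjusted p of 0.0523 and 0.0514.

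The large subunit median was 0.77 without the filter and 0.55 (longest transcript 0.51) with the length and GC correction, and the small subunit median 0.45 (longest transcript 0.42) with that correction. Large minus small was -0.044 without the filter, -0.044 with DESeq2, -0.017 with limma-voom, 0.099 with the length and GC correction (longest transcript 0.081) and -0.015 with pseudogenes summed in. Without the filter and with DESeq2 these values cover 82 members. Over the 77 that passed the low-count filter, the DESeq2 medians were 0.797 (large) and 0.802 (small). With 1 library left out, where the lone sample is assumed to vary like the other group, 5 to 8 large and 1 to 7 small subunit genes were called. The medians then ran from 0.73 to 0.91 and from 0.71 to 0.88, and large minus small from 0.0089 to 0.12. Without Runx1 replicate 1 there were 15 calls and without Runx1 replicate 2 there were 12, among them all 7 reported. Replicate numbers are not said to pair libraries, and deviations of same-numbered libraries correlated at 0.0044 over all genes. With the replicate block 0 large and 0 small subunit genes were called (0.0161% of all genes were), the large subunit median was 0.90 and large minus small was 0.066. Depth limits the short members most, with a median standard error of 0.58 under 400 coding bases.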

Other observations

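The macrophage markers Csf1r and Adgre1 were high in 1 library. The receptor gene Csf1r had 20 and 272 counts in Runx1 replicates 1 and 2 and 48 and 24 in IgG replicates 1 and 2, and Adgre1 had 0 and 40 against 3 and 2. Mrc1 and Cd68, also on the list, did not share this. Mrc1 stood at 76.4 and 35.0 against 72.1 and 62.9 CPM, lowest in that library, and Cd68 had 0 and 0 counts against 4 and 12. The summed macrophage markers stood at 90.7 and 211 against 91.6 and 83.0 CPM. In the same pair of libraries, the large subunit took 0.907% and 0.949% of gene counts. These genes were singled out after their values were seen.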
